A study of Mus musculus with 6 samples.

Results

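Olfr720 to Olfr750 and Olfr1507 to Olfr1513 are olfactory receptor (OR) genes of mouse chromosome 14, taken here by their gene numbers alone. Of the 1116 OR genes without a suffix among the 24564 gene symbols of the files, 36 met this rule, 29 in the range Olfr720 to Olfr750 and 7 in the range Olfr1507 to Olfr1513. Numbers missing from these ranges are not analysed here. By the GENCODE M21 annotation of GRCm38 (mm10), Olfr720 stood alone at chr14:14171738-14186838. The other 28 genes of the first range ran from Olfr722 (chr14:49894258-49901999) to Olfr749 and, after a gap of 321206 bases, to Olfr750 (chr14:51066301-51074435). The second range began 1273059 bases further on with Olfr1513 (chr14:52347495-52356408) and ended, in falling order of number, with Olfr1507 (chr14:52488791-52495749).

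ORs are G protein-coupled receptors of olfactory sensory neurons (OSNs), which detect odorants and signal through cyclic AMP. Each OSN transcribes a single allele of a single OR gene, and the silent OR genes are packed in heterochromatin that carries H3K9me3 and HP1 proteins. Every OR is chosen within a limited zone of the main olfactory epithelium (MOE), so the neurons of dorsal and ventral zones differ both in their receptors and in other genes, such as Nqo1 dorsally and Ncam2 ventrally. Olfr1507, also called MOR28, is a classical receptor of the most ventral zone.

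The MOE was profiled by single-cell RNA-seq in 6 libraries: swap and control had 2 each, tetOP2 and gg8tTA 1 each. The swap mice (Cbx*/* with a Cre recombinase active in neuronal lineages) replace the Cbx1 coding sequence, which encodes HP1β, with that of Cbx5, which encodes HP1α, wherever Cre has acted. Control replicate 1 was labelled wild type with Cre and control replicate 2 Cbx*/* without Cre, so the controls were not of one genotype. The tetOP2 mouse (gg8-tTA; tetOP2iresGFP) expresses the P2 receptor, Olfr17, from a transgene driven by a transactivator of immature OSNs, and the gg8tTA mouse carried that driver alone. The labels give no ages, and nothing in them says how many mice each library held. The swap and control comparison asks whether losing HP1β changes which receptors are chosen, and the other comparison what remains of the choice when 1 receptor is driven in most OSNs. Values for the 6 libraries are given in the order swap replicate 1, swap replicate 2, control replicate 1, control replicate 2, tetOP2 and gg8tTA.

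Total UMIs (counted RNA molecules) ranged from 32005196 in the tetOP2 library to 63277934 in swap replicate 1. A mature OSN was a cell with at least 10 UMIs of Omp, the olfactory marker protein, and more Omp than Gap43 UMIs. Its chosen receptor was the OR with the most UMIs, if it had at least 3 and no tie. Of 750, 1024, 1061, 1312, 683 and 683 mature OSNs, 660, 937, 956, 1181, 648 and 599 had a chosen receptor. Cbx1 was at 15 and 44 UMIs in the mature OSNs of the swap libraries against 1043 and 2715 in the controls. The female transcript Xist reached 1270 CPM (UMIs scaled to a common library total) for swap replicate 1 and 1330 to 1461 CPM for tetOP2 and gg8tTA, but at most 0.634 CPM in the other 3 libraries, where the Y-linked Ddx3y was at 44.9 to 56.2 CPM, so the swap libraries differed from each other in these genes and the controls did not. Genes of mature OSNs (8 markers) summed to 6382 to 13149 CPM in the mature gate. Omp, which sets the gate, is 1 of the 8 and alone gave 2384 to 8647 CPM, so this sum is no independent check of the label. In control replicate 2 the filters kept 57.5% of barcodes, the lowest share. Libraries shared 0 to 13 cell barcodes per pair.

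Neighbouring genes differed in how alike their sequences were, which bears on how far UMIs of one gene can be told from those of the next. The coding sequences of the 36 genes were 924 to 1167 bases long, and for 28 of them the closest relative within the group was at most 2 genes away on the chromosome. For 8 genes that relative was over 95% identical: Olfr723 and Olfr724 (98.5%), Olfr747 and Olfr749 (98.3%), Olfr1510 and Olfr1511 (97.3%), and Olfr741 and Olfr742 (96.4%). The last 30 coding bases of 4 pairs are printed because these pairs also appeared together in single cells, as described further on. Capitals mark the bases that differ within a pair when both ends are set against each other without gaps.
Olfr747: ttaggaatgagaattgtcaaaaatatAtGa
Olfr749: ttaggaatgagaattgtcaaaaatatGtAa
Olfr723: ttatggaTccaacaagtCagctgcaCatag
Olfr724: ttatggaAccaacaagtGagctgcaGatag
Olfr1512: ggaagTcaaagcactaagagtgaggtctga
Olfr1513: ggaagCcaaagcactaagagtgaggtctga
Olfr728: AACAGtCATATAaATCCtGGGAAAAaCtAa
Olfr729: TCATTtGTAGCGaGAATtTCTCTTTaTtGa
The ends of Olfr747 and Olfr749 differed at 2 of 30 bases, those of Olfr723 and Olfr724 at 3 and those of Olfr1512 and Olfr1513 at 1, whereas Olfr728 and Olfr729 differed at 24.

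A member of the group was the chosen receptor in 249 cells, in 41, 38, 57, 70, 19 and 24 cells per library. Of the 36 receptors, 34 were chosen at least once, and Olfr725 and Olfr746 had no UMI in any mature OSN. The median receptor was chosen by 6 cells over all libraries, and the most often chosen, Olfr728 and Olfr734, by 15 each. Olfr735 was the only one chosen in all 6 libraries, by 1 cell each. Because most receptors were seen in so few cells, single receptors are described by their cell numbers, and comparisons between genotypes rest on the libraries. UMIs of a member were also found in 1.95 to 7.46% of the sustentacular cells, which do not express ORs, but at least 3 UMIs of one member in only 0 to 1.39% of them, at median depths of 12048 to 20090 UMIs per sustentacular cell against 11308 to 12948 per mature OSN.

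**Figure D1:**
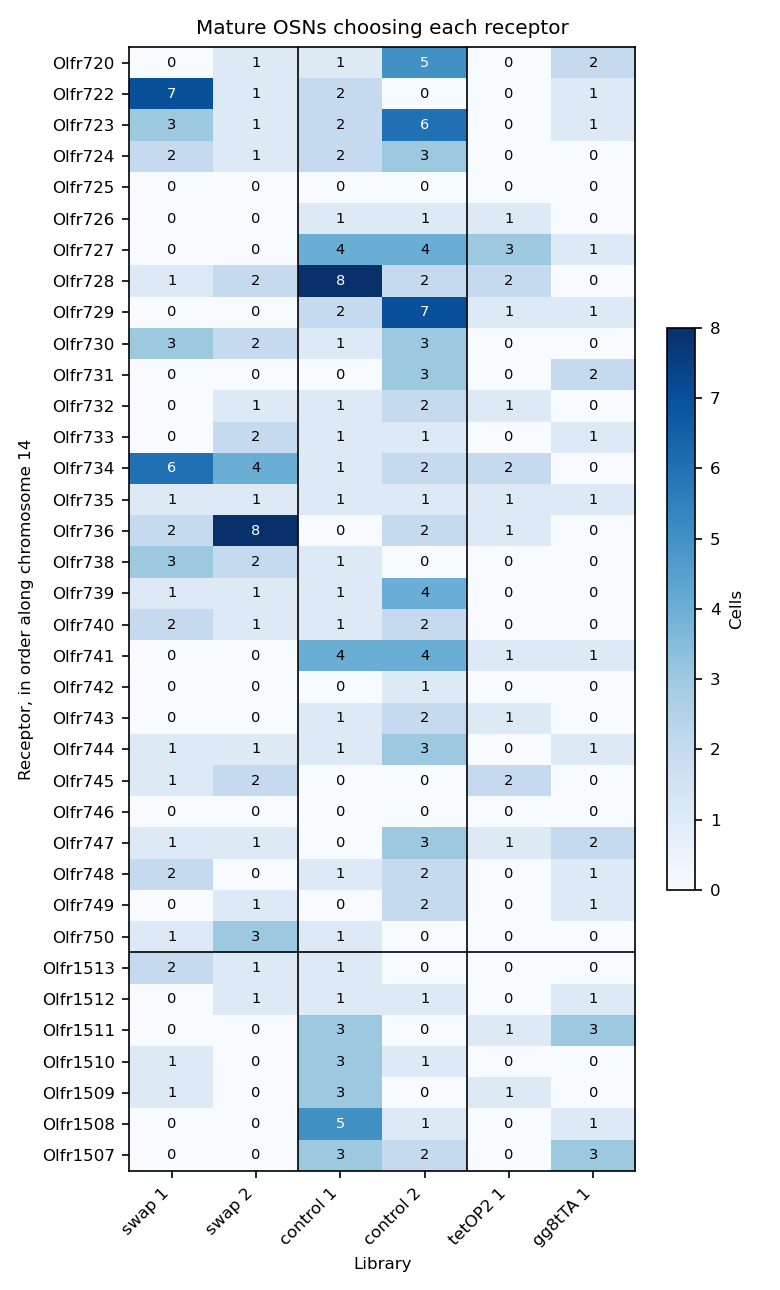
Mature OSNs that chose each receptor (number in each square and blue scale), with the 36 receptors in chromosome order from top to bottom and the 6 libraries as columns. The horizontal line separates Olfr720 to Olfr750 from Olfr1507 to Olfr1513, and the squares of Olfr727, Olfr729, Olfr741, Olfr1508 and Olfr1507 are at 0 in both swap libraries.

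The zonal markers did not follow the 2 number ranges of the group. The second range fell into 2 runs of neighbours. In the first range, receptors whose cells mostly held Nqo1 alternated in places with receptors whose cells mostly did not. Nqo1, a quinone reductase of dorsal OSNs, had a UMI in most cells of 10 receptors, in 10 to 50% of the cells of 6 and in under 10% of the cells of 17, with 3 receptors chosen by too few cells to place. The 10 receptors were Olfr738, Olfr739, Olfr744, Olfr745, Olfr748, Olfr749 and the run from Olfr1513 to Olfr1510. In the last run, 19 of 20 cells held Nqo1 (983 CPM over their summed UMIs), all 20 held the dorsal acyl-CoA synthetase gene Acsm4, and none held the ventral adhesion gene Ncam2, where 0 of 20 cells allows a share of up to 15% (3 counts of the total, counting error only). Not every listed marker went this way. In the same run the dorsal Cd55 was in 1 of 20 cells, the dorsal Robo2 and Sema3f in 3 each, and the ventral Pcp4l1 in all 20. These runs were set after the values were seen, so the counts are a description.

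At 28616 bases further on, the run from Olfr1509 to Olfr1507 was opposite in several of these markers, though not in all. Cd55 was in 0 of 20 cells here too, and Robo2 and Sema3f in 2 each. The ventral Pcp4l1 was in 13 cells and the ventral Avp in 1. Nqo1 had a UMI in 1 of 20 cells (3.81 CPM), Ncam2 in 15, the axon guidance receptor gene Nrp2 in 17, and the transcription factor gene Nfib in all 20. Cidea, a lipid droplet protein gene used here as a ventral marker, reached 911 CPM in these cells and 63.9 CPM in the run from Olfr1513 to Olfr1510. The contrast was also seen at equal depth: with each cell thinned to 3000 UMIs, Nqo1 was found in 17 of 20 cells of the first run and in 0 of 20 of the second, and Nfib in 1 of 20 and 14 of 20. For background, Ncam2 had a UMI in 1.64 to 15.5% of sustentacular cells, Nrp2 in 2.73 to 13.1% and Cidea in 5.24 to 14.8%, but Nqo1 in 14.6 to 29.3%, Acsm4 in 29.4 to 45.7% and Nfib in 86.8 to 94.0%.

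Likeness of sequence and likeness of markers went together in some pairs and not in others. Within the second range, Olfr1510 was 97.3% identical to Olfr1511, which shares its markers, and 57.0% identical to its other neighbour Olfr1509, which does not. Olfr1507 was closest to Olfr1508 (79.5%), both of the ventral run. In the first range, however, Nqo1 was found in 0 of 8 cells choosing Olfr747 and in 4 of 4 cells choosing Olfr749, although the coding sequences were 98.3% identical. The 4 Olfr749 cells came from 3 libraries and the 8 Olfr747 cells from 5.

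Among ventral-type receptors of the first range, Olfr727, Olfr729 and Olfr741 shared a further set of markers. They were picked after these values were seen, so the counts are a description. Of the 33 cells that chose one of them, 32 held Rprm, a cell cycle inhibitor gene (554 CPM), and 21 held Avp, which encodes the neuropeptide precursor of vasopressin (1750 CPM). In the 4732 OSNs that chose a receptor outside the group, 576 held Rprm and 109 held Avp. These OSNs included 619 and 899 swap cells, whereas no swap cell chose Olfr727, Olfr729 or Olfr741. Thinned to 3000 UMIs, 22 of 32 cells choosing one of the 3 receptors still held Rprm and 16 of 32 held Avp. In sustentacular cells Rprm was found in 4.47 to 18.2% and Avp in 0.109 to 0.927%. The 3 genes are not one block, since Olfr728 lies between Olfr727 and Olfr729 and had Rprm in 0 of 15 cells and the dorsal complement regulator gene Cd55 in 8 of 15. Olfr734 had Rprm in 8 of 15 cells and Avp in 4 of 15, and Olfr750, at the far end of the first range, had Cd55 in 5 of 5 cells and Nqo1 in 0 of 5. Olfr720, remote from the other genes, had Nqo1 in 0 of 9 cells, Nfib in 9 and Nrp2 in 8.

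**Figure D2:**
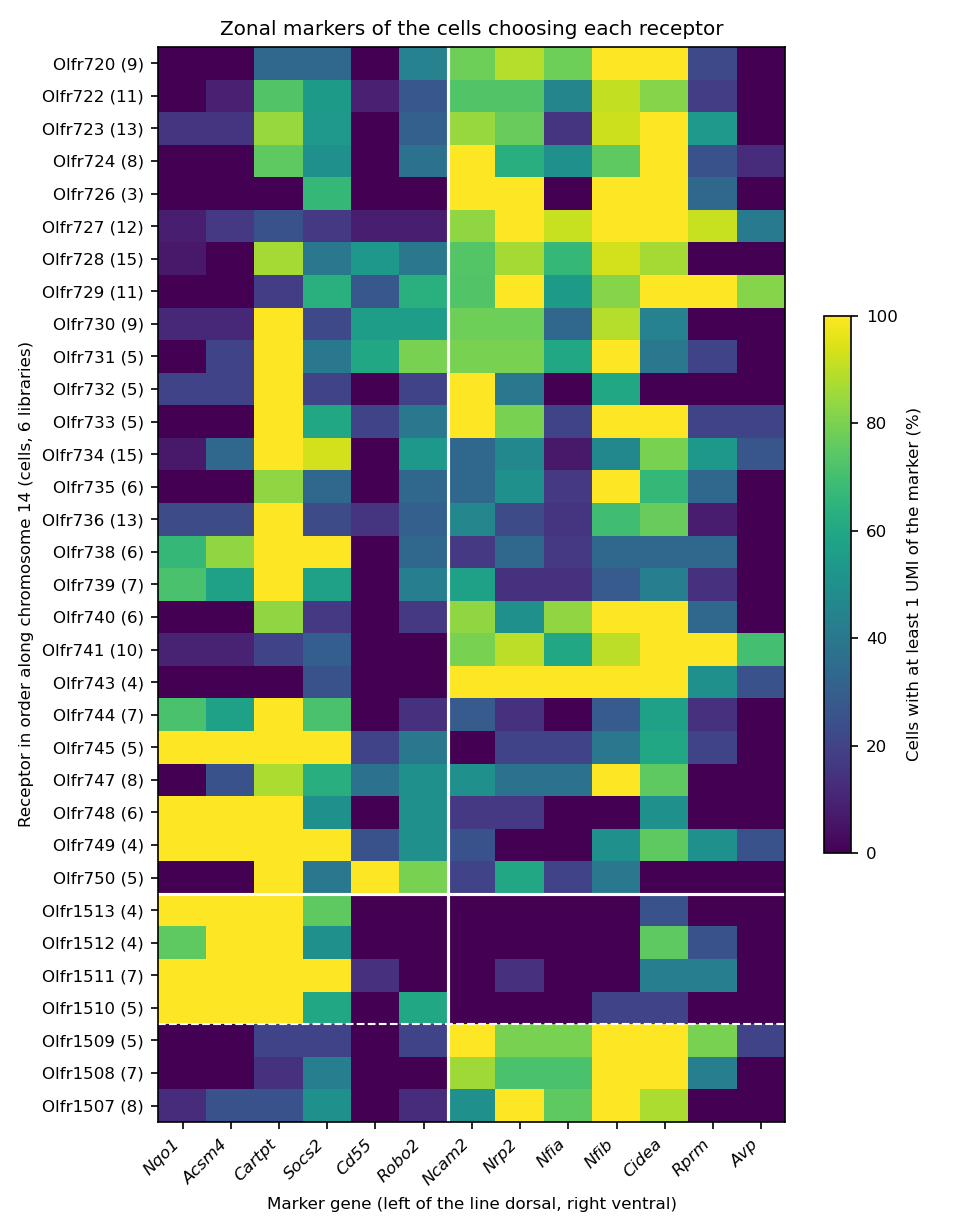
Share of the choosing cells with at least 1 UMI of a zonal marker (colour scale, percent), for receptors with at least 3 choosing cells over the 6 libraries. Receptors are in chromosome order with the number of cells in parentheses. Of the listed markers, Sema3f, Nfix, Ifi27 and Pcp4l1 are not shown. Dorsal markers stand left of the vertical line and ventral markers right of it, the solid horizontal line separates the 2 number ranges and the dashed line lies between Olfr1510 and Olfr1509, where Nqo1 goes from 5 of 5 cells to 0 of 5.

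To test which other genes set these cells apart, UMIs were summed within each library over 3 classes of cells. These were the cells choosing Olfr720 to Olfr750, the cells choosing Olfr1507 to Olfr1513 and the cells choosing any other receptor. In the tetOP2 library 380 of the 629 cells of this last class chose the driven receptor Olfr17. The sums were compared in edgeR's quasi-likelihood test with the library as a block, with OR genes left out. A gene was called at a Benjamini-Hochberg adjusted p under 0.05 and a log2 fold change over 0.58 in size. Of 7637 genes, 84 (1.1%) were called in cells choosing Olfr720 to Olfr750, 53 higher (0.694%) and 31 lower (0.406%). Of the 7 dorsal markers, 6 were tested and all 6 were lower than in other OSNs, with a median log2 fold change of -0.95 against 0.00 for all genes tested. Of the 10 ventral markers 7 were higher (Nrp2, Nfia, Cidea, Rprm, Avp, Ifi27 and Pcp4l1), with a median of 0.87, and Ncam2, Nfib and Nfix did not meet both criteria (log2 fold changes of 0.54, 0.50 and 0.42). The zonal lists were assembled with earlier results of these data known.

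Nqo1 was the gene with the smallest p. Its level was 186, 336, 165, 184, 208 and 427 CPM in cells choosing Olfr720 to Olfr750 and 557, 696, 556, 508, 533 and 908 CPM in OSNs with other receptors. It was lower in 6 of 6 libraries, and the groups did not overlap (log2 fold change -1.39 ± 0.08 SE, edgeR adjusted p = 6.46e-10). Cidea was at 312, 209, 576, 353, 410 and 314 CPM against 169, 107, 238, 122, 151 and 127 CPM. It was higher in 6 of 6 libraries (1.22 ± 0.09, edgeR adjusted p = 1.29e-08). Rprm was at 100, 19.6, 254, 114, 338 and 328 CPM against 66.5, 18.3, 43.7, 35.6, 40.5 and 88.8 CPM, higher in 6 of 6 libraries but by little in swap replicate 2 (1.79 ± 0.24, edgeR adjusted p = 0.000123). Cartpt, a neuropeptide gene, was lower by 1.01 ± 0.11 on the log2 scale, Socs2, an inhibitor of cytokine signalling, by 0.87 ± 0.10, and Robo2, an axon guidance receptor, by 1.16 ± 0.15.

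Outside the zonal lists, the genes with the smallest p were Syt4, a synaptotagmin of secretory vesicles (1.01 ± 0.11), Ly6h, a modulator of acetylcholine receptors (0.75 ± 0.10), and Fxyd2, a subunit of the sodium pump. Fxyd2 had 2 UMIs in 2971510 from these cells, a ratio of 0.0135 to other OSNs (95% interval 0.00163 to 0.0487 for counting error only). Avp was also called (2.20 ± 0.41), but not in every library. Its level was 297, 0, 142, 723, 5.19 and 286 CPM against 54.9, 12.6, 150, 66.1, 9.43 and 14.1 CPM, higher in 3 of 6 libraries, and without control replicate 2 the edgeR adjusted p was 0.178 (0.00388 with it). Cd55 was also called with all libraries (log2 fold change -0.79, adjusted p = 0.00837) but had an edgeR adjusted p of 0.0636 without control replicate 2. Nfia, at 0.90, had an edgeR adjusted p of 0.00957, and of 0.0993 without control replicate 1 and 0.0505 without the gg8tTA library. None of the 18 receptor choice and chromatin genes (among them Lhx2, Ldb1, Ebf1 and Kdm1a) and none of the 11 signal transduction genes (among them Gnal, Adcy3 and Cnga2) were called, with list medians of 0.04 and 0.07.

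Cells choosing Olfr1507 to Olfr1513 gave sums of at least 5 cells in 3 libraries alone, 19 cells in control replicate 1, 5 in control replicate 2 and 8 in the gg8tTA library. Of the same genes 34 were called (0.445%), 12 higher (0.157%) and 22 lower (0.288%). Cidea and Pcp4l1 were the 2 ventral markers of 10 that were higher (1.41 ± 0.16 and 0.90 ± 0.16), and Robo2 (-2.44 ± 0.43) and Cd55 the 2 dorsal markers of 6 that were lower. Cd55 had 2 UMIs in 408024, a ratio of 0.0470 (0.00569 to 0.170). Nqo1 did not pass (-0.57 ± 0.14, edgeR adjusted p = 0.0594) in these sums, which joined the Nqo1-positive run and the Nqo1-negative run. Without control replicate 1, Cidea had an edgeR adjusted p of 0.0665, Cd55 of 0.163 and Pcp4l1 of 0.434. Robo2 had 0.195 with sums of at least 10 cells in the same edgeR test. The list medians were -0.69 for the dorsal and 0.39 for the ventral markers. Of the signal transduction genes 1 of 11 was higher, Ric8b (0.59, edgeR adjusted p = 0.0211), a chaperone of the olfactory G protein (0.160 without control replicate 1, 0.0723 without control replicate 2 and 0.364 without gg8tTA in the same edgeR test), and of the receptor choice and chromatin genes 0 of 18 were called.

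Genes beyond the zonal lists were called in the second range. Of all 14 genes named for this comparison, however, only 2, Hist2h2be and Tubb3, kept their call under every alternative that tested them. Pcdh17, a protocadherin of cell adhesion, was at 20.1, 0 and 21.5 CPM in the 3 sums, against 181, 198 and 206 CPM in other OSNs of the same libraries (log2 fold change -3.51 ± 0.33, edgeR adjusted p = 1.53e-06). Hist2h2be, which encodes a histone H2B variant of OSNs, was at 120, 183 and 376 CPM against 464, 419 and 1115 CPM (-1.74 ± 0.16, adjusted p = 1.53e-06 in the same edgeR fit). Pcdh9, another protocadherin, had 0 UMIs in 408024 from the 3 sums, at least 12.5-fold lower than in other OSNs against a floor of 3 UMIs. In the sums left out for few cells, Pcdh9 was at 166 CPM in tetOP2 (2 cells, other OSNs 145 CPM) and at 0 in both swap libraries. Pcdh17 was there at 130 CPM in swap replicate 1 (4 cells, other OSNs 197 CPM) and at 0 in swap replicate 2 and tetOP2. Tubb3, a tubulin of neurons, was lower by 0.94 ± 0.13 and Tuba4a higher by 1.67 ± 0.23 on the log2 scale. With doublets kept, Pcdh17 had an edgeR adjusted p of 0.396 and Pcdh9 of 0.0676, and with cells thinned to 3000 UMIs 0.110 and 0.0625. Tuba4a had an edgeR adjusted p of 0.0657 with thinned cells. By cell, Pcdh17 had a UMI in 3 of 20 cells from Olfr1513 to Olfr1510 and in 4 of 20 from Olfr1509 to Olfr1507, and Pcdh9 in 1 of 20 and 0 of 20. The Nqo1-positive receptors Olfr744, Olfr745, Olfr748 and Olfr749 of the first range had Pcdh9 in 18 of 22 cells and Pcdh17 in 16 of 22. For other first-range receptors, Pcdh9 was found in 5 of 33 cells choosing Olfr727, Olfr729 or Olfr741 and in 6 of 13 choosing Olfr738 or Olfr739, while Pcdh17 was found in 26 of 33 and 13 of 13. At 3000 UMIs per cell, Pcdh9 was found in 2 of 32 and 3 of 12 of these cells and in none of the second range.

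Tested directly against each other in the same fit, the 2 ranges differed at 11 of 7637 genes (0.144%), 5 higher (0.0655%) and 6 lower (0.0786%) in cells choosing Olfr1507 to Olfr1513. Pcdh17 (-3.10 ± 0.36), Hist2h2be (-1.33 ± 0.17) and Tubb3 (-0.93 ± 0.13) were among the lower genes, of which Hist2h2be alone was called under every alternative that tested it. Hist2h2be had a UMI in 14 of 20 cells from Olfr1509 to Olfr1507 and in 18 of 20 from Olfr1513 to Olfr1510. First-range cells differed: 24 of 33 choosing Olfr727, Olfr729 or Olfr741 held it. So did 13 of 13 choosing Olfr738 or Olfr739 and 21 of 22 choosing Olfr744, Olfr745, Olfr748 or Olfr749. Cells without Hist2h2be were thus not particular to the second range. No ventral marker of 10 was called. Nqo1 (0.82 ± 0.15, edgeR adjusted p = 0.0209) and Cartpt (0.87 ± 0.17, edgeR adjusted p = 0.0244) were among the higher. These calls rest on few cells: without the gg8tTA library 2 genes were called, and Nqo1 (adjusted p = 0.151) and Cartpt (adjusted p = 0.681) were not, again by edgeR. Of the genes called against other OSNs, 5 were higher in both ranges (9.43% of 53 and 41.7% of 12) and 7 lower in both (22.6% of 31 and 31.8% of 22), comparisons that share the other OSNs.

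**Figure D3:**
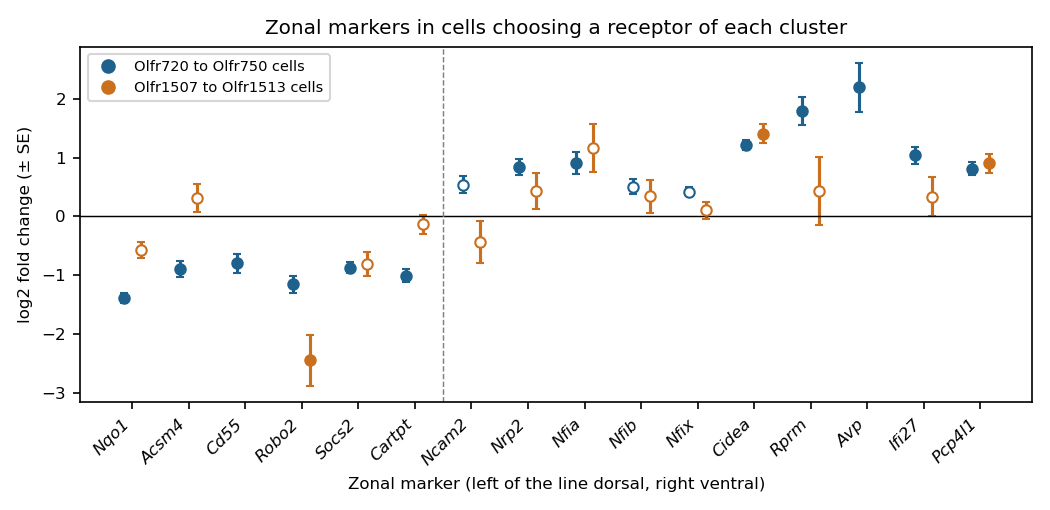
Log2 fold change (point) and its standard error (bar) of the zonal markers in cells choosing Olfr720 to Olfr750 (blue) or Olfr1507 to Olfr1513 (orange) against OSNs with other receptors, from edgeR. Filled points were called and open points were not, and Cd55 and Avp of Olfr1507 to Olfr1513 are left out because at most 2 UMIs stood behind them. All 6 dorsal markers of Olfr720 to Olfr750 are filled and below 0.

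Between genotypes, the share of mature OSNs with a chosen receptor that chose any of the 36 receptors was 6.21 and 4.06% for swap and 5.96 and 5.93% for control. The groups overlapped (5.13 ± 1.52 against 5.94 ± 0.0249, SD, n = 2 each, two-sided exact permutation p = 1). With 2 libraries against 2, the smallest p this test can give is 0.333. For Olfr720 to Olfr750 the shares were 5.61 and 3.84% against 3.97 and 5.50% and did not differ beyond the spread (exact permutation p = 1). For Olfr1507 to Olfr1513 they were 0.606 and 0.213% (4 and 2 cells) against 1.99 and 0.423% (19 and 5 cells), a difference of -0.796 percentage points (exact permutation p = 0.667). Control replicate 1 carried that difference, and without it the difference was -0.0136 points. By run, as a description, Olfr1509 to Olfr1507 were at 0.152 and 0% (1 and 0 cells) against 1.15 and 0.254% (11 and 3 cells). Here 0 of 937 cells allows a share of up to 0.320% (3 counts of the total). The run from Olfr1513 to Olfr1510 was at 0.455 and 0.213% (3 and 2 cells) against 0.837 and 0.169% (8 and 2 cells), which overlapped.

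Immature OSNs, with at least 10 UMIs of Gap43 and no fewer Gap43 than Omp UMIs, were counted in the same way. Olfr1507 to Olfr1513 were chosen in 3 of 510 and 0 of 264 such swap cells (0.588 and 0%) and in 10 of 543 and 4 of 216 in the controls (1.84 and 1.85%), where 0 of 264 allows a share of up to 1.14% (3 counts of the total). The groups did not overlap, at the smallest p this design allows (exact permutation p = 0.333, difference -1.55 points). For Olfr720 to Olfr750 the immature shares were 4.90 and 4.17% against 3.31 and 4.63% (exact permutation p = 0.667).

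**Figure D4:**
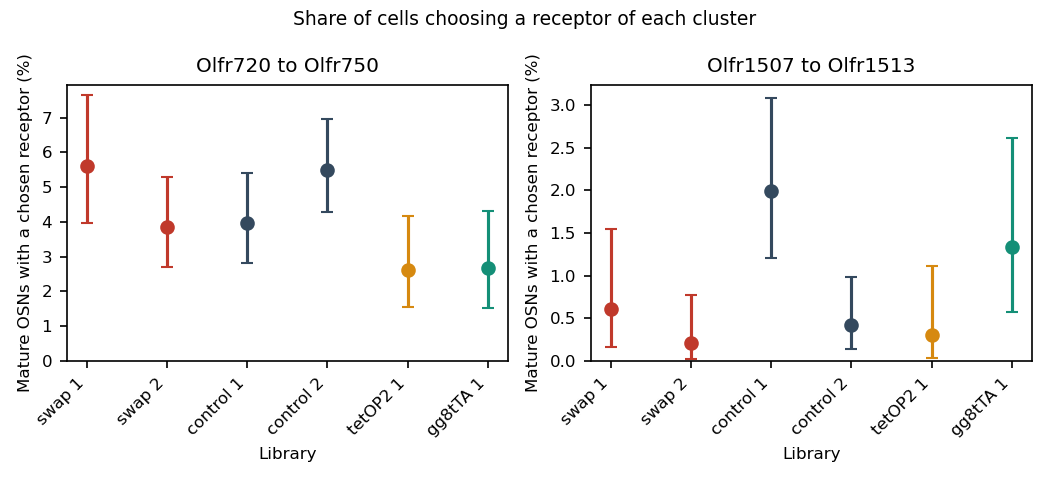
Share of mature OSNs with a chosen receptor (percent, point) that chose a receptor of each number range in each library, with exact 95% binomial intervals for counting error (bars). The ranges of swap and control overlap for both sets, and for Olfr1507 to Olfr1513 control replicate 1 stands highest at 1.99%.

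Of the 36 receptors, 10 were chosen in a control library and in no swap library (Olfr726, Olfr727, Olfr729, Olfr731, Olfr741, Olfr742, Olfr743, Olfr1511, Olfr1508 and Olfr1507), 1 in a swap library and in no control library (Olfr745) and 23 in both genotypes. Fewer swap than control cells had a chosen receptor (1597 against 2137). Over all OR genes, swap cells also chose fewer different receptors per library (335 and 412 against 527 and 591). The count of 10 against 1 is thus a description. It was not made for all OR genes, so it cannot say whether these 36 receptors differ from the others. Of 21 members chosen by at least 5 cells over the 4 swap and control libraries, 5 had a lower share in both swap libraries than in both controls, 23.8%, beside 22.1% of all 298 OR genes with as many cells. A higher share in both swap libraries was found for 4 members (Olfr734, Olfr736, Olfr738 and Olfr750), 19.0% beside 30.2% of all such OR genes. The 5 lower ones, Olfr727, Olfr729, Olfr741, Olfr1508 and Olfr1507, all had 0 of 1597 swap cells, which allows a share of up to 0.188% (3 counts of the total). Members with no swap cell were 23.8% of the 21, beside 12.8% of the 298 OR genes, a difference that was not tested. In the controls Olfr727 was chosen by 4 and 4 cells, Olfr729 by 2 and 7, and Olfr741 by 4 and 4. Olfr1508 was chosen by 5 and 1, and Olfr1507 by 3 and 2. These were shares of 0.234 to 0.421% of 2137 cells. Their exact binomial intervals began at 0.162% for Olfr727 and Olfr741, 0.103% for Olfr1508 and 0.076% for Olfr1507. For these receptors the swap limit of 0.188% thus lay within the control interval. For Olfr729 the interval began at 0.193%, just above the limit. The 5 were picked for their low swap shares, so this is a description. Olfr727, Olfr729 and Olfr741, which shared Rprm and Avp, were chosen by 5 tetOP2 cells and 3 gg8tTA cells.

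In the summed UMIs of all mature OSNs, whether or not they chose a member, several receptors were low in swap but none passed the test. These sums contain the UMIs of the choosing cells counted above, so they are not a separate line of evidence. Olfr727 was at 0.107 and 0.214 CPM in swap and at 35.6 and 42.8 CPM in control. Olfr741 was at 0 in both swap libraries and at 24.0 and 21.2 CPM, and Olfr1507 at 0 in both and at 30.8 and 22.4 CPM. The swap and control values of these 3 genes did not overlap, yet edgeR gave each an adjusted p of 0.183. Olfr726 and Olfr743 were also at 0 in both swap libraries, with 5.58 and 6.94 CPM and 12.4 and 28.2 CPM in control (edgeR adjusted p = 0.196 each). The reverse pattern was seen for Olfr745, with 8.58 and 35.8 CPM in swap and 0 and 0.0522 CPM in control (adjusted p = 0.221 from edgeR). Olfr722, at 65.5 and 10.3 against 11.9 and 0 CPM, overlapped between genotypes. Summed RNA cannot tell fewer choosing cells from less RNA per cell.

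Over all 13293 genes tested edgeR called none (0%) between swap and control, and thus none of the 32 members that passed the filter on low counts (Olfr725, Olfr742, Olfr746 and Olfr1511 did not). The targeted genes were not called either. Cbx1 had a log2 fold change of -5.52 (edgeR adjusted p = 0.183) and Cbx5 of 1.58 (edgeR adjusted p = 0.886). A lack of calls in this test therefore does not show a lack of change. At an unadjusted p under 0.05 there were 9 members, 28.1%, of which 8 were lower in swap, beside 29.5% of the 577 OR genes tested and 2.05% of all genes. Most of the 170 OR genes at this p were lower as well, 120 against 50 higher. The median log2 fold change was -0.42 for the members, -0.16 for the OR genes and 0.01 for all genes. DESeq2 called 9 of the 32 members (8 lower, Olfr745 higher), beside 151 of the 577 OR genes (113 lower, 38 higher) and 180 of all 13293 genes. The edgeR calls changed, for members and for other OR genes, when either control library was left out, which leaves 1 control library. The members with 0 UMIs in 1 group passed the filter through the other group, so the count over the members that passed is a description.

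The receptors' level in the cells that chose them did not differ beyond the spread between libraries. The median UMI number of the chosen member was 56 and 106 for swap, 83 and 115 for control, 71 for tetOP2 and 96 for gg8tTA. The swap and control medians overlapped (difference -18 UMIs, exact permutation p = 0.667), as they did with cells thinned to 3000 UMIs (18 and 21 against 19.5 and 23.5, exact permutation p = 0.667). Medians of single receptors ranged more widely. The median was 24 UMIs per cell for Olfr724, 27 for Olfr732 and 43 for Olfr734, but 282 for Olfr749, 225 for Olfr743 and 174 for Olfr747. Olfr723, 98.5% identical to Olfr724 in coding sequence, was at 78 UMIs. These are UMIs per cell, not scaled by transcript length.

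**Figure D5:**
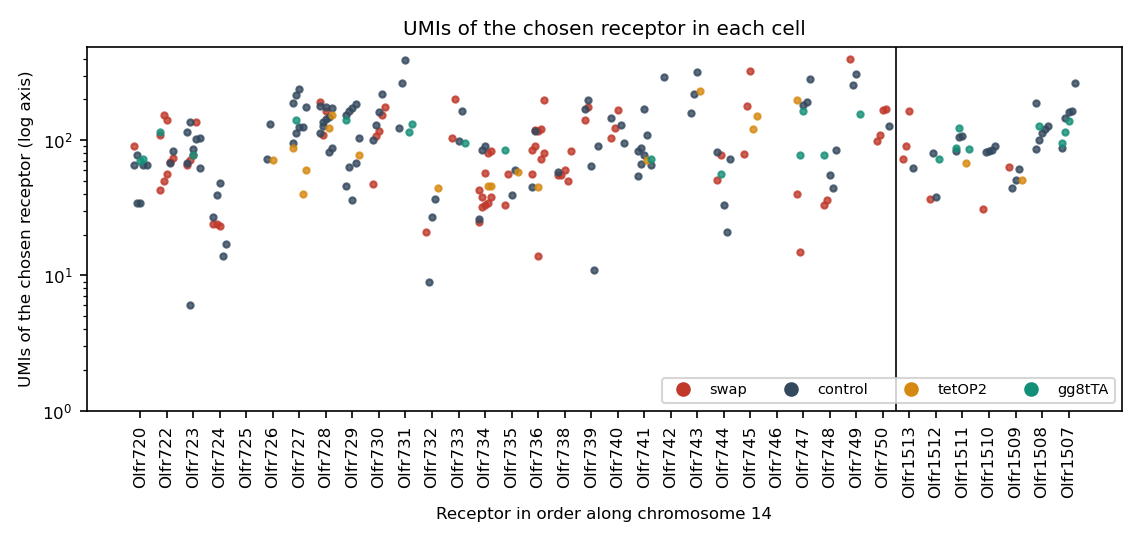
UMIs of the chosen receptor in each choosing cell (log axis), with the receptors in chromosome order and cells coloured by group. The cells span 6 to 396 UMIs, the Olfr724 cells reach at most 48, and swap and control cells of most receptors intermingle.

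Zonal markers were also set side by side between genotypes, as a description, since the receptors behind the cells differed. Ncam2 had a UMI in 56.1 and 34.2% of the member-choosing cells of swap and in 68.4 and 78.6% of those of control. In OSNs with other receptors it was 35.5 and 33.7% against 46.7 and 52.9%. Thinned to 3000 UMIs, the group means were 20.6 against 34.7% in member-choosing cells. Avp was found in 7.32 and 0% against 17.5 and 20.0% of member-choosing cells, beside 3.55 and 1.45% against 1.78 and 3.15% of the others. Rprm was in 24.4 and 10.5% against 36.8 and 34.3%, beside 16.5 and 5.56% against 10.0 and 11.4% of the others. Cidea was in 73.2 and 76.3% against 77.2 and 77.1%, lower in both swap libraries. The genotypes overlapped for Ifi27 (51.2 and 39.5% against 56.1 and 37.1%) and Nrp2 (63.4 and 42.1% against 71.9 and 61.4%). Nfix, in 92.7 and 86.8% against 82.5 and 90.0%, was the 1 ventral marker with a higher mean in swap. Thinned to 3000 UMIs, Nfix was lower in both swap libraries (57.5 and 58.3% against 61.5 and 72.7%). Ifi27 then had the higher mean in swap (26.4 against 22.2%). Among dorsal markers, Socs2 was in 65.9 and 60.5% against 33.3 and 40.0%, beside 75.6 and 67.4% against 58.5 and 59.0% of the others. Cartpt was in 85.4 and 89.5% against 63.2 and 65.7%, beside 93.7 and 93.3% against 93.9 and 92.7% of the others. Nqo1 and Robo2 were also higher in both swap libraries, but the genotypes overlapped for Acsm4 (34.1 and 26.3% against 28.1 and 17.1%), Cd55 and Sema3f. Thinned to 3000 UMIs, Robo2 was instead lower in both swap libraries (7.5 and 8.33% against 13.5 and 16.7%). The difference of the group means (swap minus control) was above 0 for 7 of 7 dorsal markers, from 1.21 to 26.5 points, and below 0 for 9 of 10 ventral markers, from -28.3 to 3.53 points over all 10. With thinned cells it was above 0 for 6 of 7 and below 0 for 9 of 10. These counts are for member-choosing cells, and part of the shift was also seen outside the group. In OSNs with other receptors the difference was above 0 for 6 of 7 dorsal markers, from -0.0840 to 12.7 points. It was below 0 there for 6 of 10 ventral markers, from -15.2 to 2.90 points. With thinned cells these counts were 6 of 7 and 7 of 10. Cells with no Nqo1 UMI that chose a member were 4.70 and 2.88% of OSNs in swap and 4.71 and 4.91% in control (exact permutation p = 0.333, the smallest possible), and those with Nqo1 were 1.52 and 1.17% against 1.26 and 1.02% (exact permutation p = 0.667). Sustentacular markers in the summed mature OSNs (5 genes) stood at 1034 and 2660 CPM in swap and 45.2 and 3717 CPM in control, and their part in these values was not tested.

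A further receptor beside the chosen one was often a neighbour. Of the 249 cells, 32 held at least 2 UMIs of another OR, which was a member in 19 and lay within 2 genes in 18. At 3 UMIs or more these were 21 cells (8.43%), beside 296 of the 4732 cells with other receptors (6.26%). The pairs were Olfr747 with Olfr749 in 4 cells, Olfr723 with Olfr724, Olfr727 with Olfr728 and Olfr728 with Olfr729 in 3 each, and Olfr1512 with Olfr1513 in 2. The second gene had 2 to 7 UMIs in these pairs. The 1 pair of members that were not near neighbours was in a cell of swap replicate 1 with 108 UMIs of Olfr730 and 56 of Olfr722, 281296 bases apart.

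The pairs were of different kinds in sequence. Of all 31-base words in the exons of the smaller gene, Olfr747 and Olfr749 shared 54.4%, Olfr723 and Olfr724 65.9%, and Olfr1512 and Olfr1513 27.2%, so reads of these pairs can be hard to assign. Olfr728 shared none with Olfr727 or with Olfr729, and their exons did not overlap. These 3 genes are close: Olfr727 (plus strand) ends 5011 bases before Olfr728 (minus strand), and Olfr729, on the same strand as Olfr728 and 2050 bases from it, is transcribed toward it. Olfr728 UMIs were found in 6 of the 11 Olfr729 cells and in 4 of the 12 Olfr727 cells, but in 0.141 and 0.182% of the OSNs that chose other receptors and held under 3 such UMIs, whereas no Olfr729 UMI was found in the 15 Olfr728 cells. The files count reads in introns as well as exons.

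With Olfr17 driven from the transgene, 380 of 648 tetOP2 cells (58.6%) chose Olfr17, against 1 of 599 gg8tTA cells. A member was chosen by 19 tetOP2 cells, 2.93% (exact 95% interval 1.77 to 4.54), and by 24 gg8tTA cells, 4.01% (2.58 to 5.90). With the Olfr17 cells left out, the tetOP2 share was 7.09% of 268 cells (4.32 to 10.9) and the gg8tTA share 4.01% of 598 (2.59 to 5.91), so the order of the libraries turned. With 1 library per group there is no test, and the intervals overlap. For Olfr1507 to Olfr1513 there were 2 cells against 8, or 0.746% (0.0905 to 2.67) against 1.34% (0.579 to 2.62) without Olfr17 cells.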

How the data were processed

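The deposited files hold whole-number UMI counts per gene and cell barcode, which the authors made with Cell Ranger from 10x Genomics libraries of papain-dissociated MOE, introns included, with the build mm10 per the processing notes. Gene symbols were used as given, and groups came from the labels. Barcodes under 1000 UMIs or 500 genes were dropped, as were 53 to 207 predicted doublets per library (an assumed rate of 0.8% per 1000 cells). Counts summed per library were tested with edgeR 4.0.16 (TMM, quasi-likelihood, Benjamini-Hochberg over all genes tested), with DESeq2 1.42.0 as an alternative, in R 4.3.3, and shares with exact permutation tests or Clopper-Pearson intervals in scipy 1.17.1. The main edgeR fits were first checked on simulated counts, with changes placed in non-OR genes and no library effects. That check covers neither the members nor DESeq2 nor the other alternatives. Genes were named if they were members, in a marker list, among the 5 of each direction with the smallest adjusted p in a fit, or the targeted, transgene and sex genes. The members, lists and tests were chosen with earlier results of these data known. The study's methods name biological replicates but the labels tie no library to a mouse, so p-values measure the spread between libraries. Alternatives were the UMI minimum, the Omp gate, doublets, thinning, the filter, the normalization, the replicate block and each library left out. Intervals and limits cover counting error only. Sequences and positions came from GRCm38 with GENCODE M21, and identity is over aligned columns. RefSeq promoter windows were matched for 30 of the 36 genes, but only 2 lay within 200 bases of the annotated start, so promoters were not described. A part of the genotype labels is not reported here.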

Additional observations from a re-analysis of the deposited data

How the results depend on the processing

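The difference in the share choosing Olfr720 to Olfr750 (swap minus control, -0.0153 points) had no stable sign: it was 0.176 with a minimum of 1 UMI for the chosen receptor, 0.0577 with 10 UMIs, 0.0758 with doublets kept and 0.202 with cells thinned to 3000 UMIs, and -0.897 to 0.867 with 1 library left out (0.867 without swap replicate 2, 0.749 without control replicate 2). For Olfr1507 to Olfr1513 the range with 1 library left out was -1.58 to -0.0136 points, the latter without control replicate 1. The difference in UMIs per choosing cell ranged from -43 (without swap replicate 2) to 7 (without swap replicate 1). The tetOP2 share minus the gg8tTA share, -1.07 points, became 3.08 with Olfr17 cells left out.

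Members called between swap and control numbered 0 in edgeR, 9 in DESeq2 and 0 to 12 with 1 library left out, 12 without control replicate 1 and 12 without control replicate 2. The genes called in Olfr720 to Olfr750 cells (84) numbered 32 with thinned cells, 238 without a filter on low counts, 142 in the control libraries alone (chosen after seeing the data) and 43 to 173 with 1 library left out (43 without control replicate 2, 173 without swap replicate 2). In Olfr1507 to Olfr1513 cells (34) they numbered 160 with doublets kept, 9 with thinned cells, 174 without the filter, 18 with sums of at least 10 cells, 72 in the controls alone and 16 to 63 with 1 library left out (63 without swap replicate 2, 16 without control replicate 1, 22 without tetOP2, 18 without gg8tTA). Between the ranges (11) they numbered 5 with a minimum of 1 UMI, 119 with doublets kept, 5 with thinned cells, 42 without the filter, 2 with sums of at least 10 cells, 27 in the controls alone and 2 to 16 with 1 library left out (6 without control replicate 2, 2 without gg8tTA). Thinning and the filter changed how many genes were tested (2459 and 17732 in place of 7637), and the cause of the other shifts was not tested. No named gene turned its direction. The call was kept under every alternative that tested the gene for 13 of 16 named genes of Olfr720 to Olfr750 cells. This held for 2 of 14 of Olfr1507 to Olfr1513 cells and 1 of 10 between the ranges. Not every gene was tested in every alternative.

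A block by replicate number leaves differences of group means unchanged by construction, so it is no check of them. They stay at -0.796 points for Olfr1507 to Olfr1513, -0.0153 points for Olfr720 to Olfr750 and -18 UMIs. In edgeR with this block 0 members were called, and Olfr727, Olfr741 and Olfr1507 had an edgeR adjusted p of 0.643. The block changed no call. By their labels, swap and control libraries share only a replicate number. The 2 replicate differences were nevertheless correlated, at 0.313 over all genes tested and 0.490 without OR genes. Libraries of the same number were thus alike in part, and the cause was not tested. Few cells per receptor and 2 libraries per group limit every comparison between genotypes.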

Other observations

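Low UMI numbers of most members were rare in OSNs that chose another receptor, but not for all. Among OSNs that chose a receptor other than Olfr729 and held under 3 UMIs of Olfr731, 1.55% held Olfr731, and with Olfr748 as the receptor left out 1.01% held Olfr750. The same measure was 0.141% for Olfr728 beside Olfr729 and 0.0605% for Olfr730 beside Olfr729.

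Beyond the genes described above, 2300005B03Rik was higher in cells choosing Olfr1507 to Olfr1513, at 40.1, 305 and 236 CPM in control replicate 1, control replicate 2 and gg8tTA against 7.78, 10.2 and 16.9 CPM in other OSNs (log2 fold change 3.62 ± 0.44). Mslnl (0.96) and Pdlim1 (1.71) were also called higher there. Against Olfr720 to Olfr750 cells, Tmbim6 (0.69) and Herpud1 (1.03), genes of the endoplasmic reticulum stress response, were called higher and Plac8 (-2.16) lower.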
